A study of Mus musculus with 18 samples.

Results

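The cells described here are the Ly6c2 Ccr2 monocytes of the mouse dorsal dermis, 129 cells of 16877 that passed the limits on genes and mitochondrial reads (0.764%) and of 23990 deposited barcodes. They were chosen by a rule on measured counts of unique molecular identifiers (UMIs, 1 per captured transcript). A barcode needed 850 to 7800 detected genes, under 13% mitochondrial UMIs, at least 1 UMI each of Ly6c2, Ccr2 and Plac8, at most 2 UMIs of C1qa, and none of Pdgfra or Flt3. They were set beside 1952 C1q-positive macrophages, which had at least 3 UMIs each of C1qa, C1qb and C1qc. The values of these 8 genes made both groups and are given only as description.

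The study collected skin from wild-type male C57BL/6J mice kept in 12 h of light and 12 h of dark, every 4 h over 3 days. In zeitgeber time (ZT), lights go on at hour 0, and each of ZT2, ZT6, ZT10, ZT14, ZT18 and ZT22 had 3 mice, labelled R1, R2 and R3 by the day of collection. Hair was removed, fat and remaining vessels were scraped off, the skin was digested with collagenase at 37 °C, and live cells were sorted by exclusion of a viability dye. Each mouse gave 1 droplet library of 3′ ends, so mice are the replicates, and no mouse carried any other treatment or allele. The libraries held 4850221 to 40827442 UMIs and 177 to 1998 filtered cells, with medians of 16379 to 25855 UMIs per filtered cell.

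Classical monocytes are made in the bone marrow, leave it by way of the chemokine receptor Ccr2, circulate in blood and enter tissues such as skin. There they can keep a monocyte program, take on antigen presentation through MHC class II, or become macrophages. Resident dermal macrophages instead carry complement C1q, the mannose receptor Mrc1 and scavenger receptors. In blood, the number of Ly6C-high monocytes is known to vary over the day, and the clock gene Arntl acts in this cycle.

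The genes of the rule sat well above their limits in most of the monocytes. Ly6c2, a surface protein of the Ly6 family and the defining marker of classical monocytes in mice, lies at chr15:75108158-75111970 (mm10, minus strand) and had a median of 14 UMIs per monocyte, with a highest value of 250. Its near-identical neighbour Ly6c1 lies on the same chromosome, so reads can be split between the 2 genes and the level of Ly6c2 is uncertain. Ccr2, the receptor for the chemokine Ccl2, had a median of 11 UMIs (highest 49), and Plac8, a small cysteine-rich protein, a median of 22 (highest 95). Cells at the limit of exactly 1 UMI numbered 14 for Ly6c2, 4 for Ccr2 and 11 for Plac8. Plac8 alone did not separate the cells, since 92.6% of 11640 reference fibroblasts also had a UMI of it. Just outside the rule, 79 cells failed only by lacking Ly6c2, 57 by lacking Plac8, 20 by lacking Ccr2, 31 by a UMI of Flt3 and 9 by a UMI of Pdgfra. Another 116 cells failed only because C1qa was above 2, and 3 of these had exactly 3 UMIs of C1qa, while 63 of the 116 came from the library ZT2 R3. Of these 63, 61 were among the C1q-positive macrophages that the monocytes are compared with. The rule limits C1qa alone, and 25 of the 129 monocytes had 3 or more UMIs of C1qb or C1qc, with up to 68 of C1qb, among them 16 in ZT2 R3, 4 in ZT10 R1, 2 each in ZT14 R1 and ZT14 R3 and 1 in ZT6 R3. The main counts were repeated without these 25 cells, an alternative chosen after seeing the data. Below they are called the cells with C1qb or C1qc, though some of the others held 1 or 2 such UMIs.

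The markers outside the rule were detected to different degrees. Ms4a4c, a membrane protein of blood monocytes, was detected in 115 of 129 monocytes (89.1%) against 25.2% of macrophages and 0.146% of fibroblasts. Chil3, a secreted lectin of classical monocytes, was detected in 46 (35.7%) against 1.84% of macrophages and 0.0172% of fibroblasts. Depth did not differ much between the immune groups, with medians of 12856 UMIs in monocytes, 12694.5 in macrophages and 22058.5 in fibroblasts. After every cell was thinned to 5000 UMIs, which left 117 monocytes and 1763 macrophages, the shares of monocytes with a UMI were 78.6% for Ms4a4c and 30.8% for Chil3. The leukocyte gene Ptprc was detected in 126 of the 129 cells.

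A few cells in the rule lacked the main myeloid gene. Lyz2, the lysozyme of monocytes and macrophages, was at 0 in 8 of the 129 cells. Among these were all 5 cells that held a UMI of a lymphoid gene, meaning Cd3e, Cd3d, Cd3g, Trac, Ncr1 or Cd79a. The 5 cells came from ZT2 R3 (1), ZT10 R2 (1), ZT14 R1 (1) and ZT14 R3 (2), and the main counts were repeated without them. Of the neutrophil markers, S100a8 was detected in 9 monocytes and Ly6g in 0 of 129, which, with 3 counts as the limit, allows up to 2.33% of cells with a UMI and sets no limit on cells that express it. Col1a1, a collagen of fibroblasts, had a UMI in 69 monocytes (53.5%) and in 65.9% of macrophages, and 7 fibroblast genes, Pdgfra of the rule included, summed to 2.52 to 3.60 per 10000 UMIs in the monocytes of the 5 best covered libraries against 761 to 1360 in fibroblasts of the same libraries.

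The monocytes were spread very unevenly over the mice. Their number in R1, R2 and R3 was 1, 1 and 62 at ZT2, 2, 0 and 1 at ZT6, 7, 6 and 0 at ZT10, 26, 4 and 10 at ZT14, 0, 4 and 0 at ZT18, and 0, 4 and 1 at ZT22. The libraries ZT2 R3 and ZT14 R1 held 88 of the 129 cells (68.2%), and the other 16 held 41. In ZT2 R3 the monocytes were 3.103% of filtered cells (exact 95% Clopper-Pearson interval 2.39 to 3.96), and in ZT14 R1 they were 4.16% (2.74 to 6.04). These intervals, like all others here, cover counting error only. The other libraries reached at most 0.938%, with a median of 0.169%. As a share of monocytes plus macrophages, which does not depend on the number of fibroblasts, the values were 21.9% in ZT2 R3 (17.2 to 27.2), 19.8% in ZT14 R1 (13.4 to 27.7) and at most 8.33% elsewhere, with a median of 1.38%. Of the 5 libraries without a monocyte, ZT18 R3 and ZT22 R1 had the most filtered cells, and their 0 allows shares of up to 0.2004% and 0.218%. The highest mouse of ZT2 and of ZT14 thus stood far from the other mice of its own time point.

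**Figure D1:**
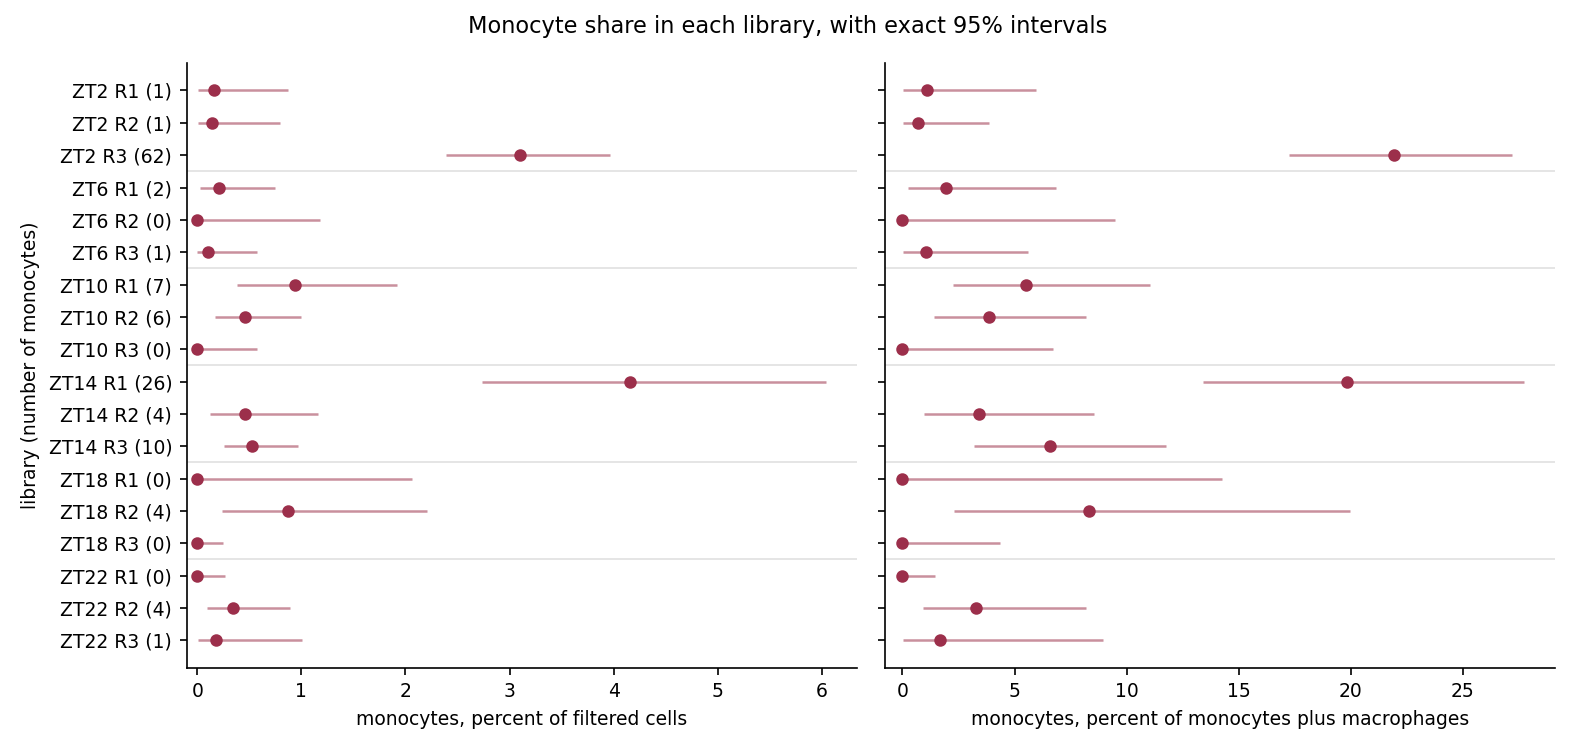
Monocytes as a percent of filtered cells (left) and of monocytes plus C1q-positive macrophages (right) in each of the 18 libraries, with the number of monocytes in brackets; points are the shares and lines the exact 95% binomial intervals. ZT2 R3 and ZT14 R1 stand apart at 3.103% and 4.16% of filtered cells, while the other 16 libraries are at 0.938% or below.

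A change of the monocyte share over the day was not detected. The mean share of filtered cells was 1.13% ± 1.71 at ZT2, 0.103% ± 0.103 at ZT6, 0.466% ± 0.469 at ZT10, 1.72% ± 2.12 at ZT14, 0.289% ± 0.501 at ZT18 and 0.177% ± 0.174 at ZT22 (SD, n = 3 mice each). A 24 h cosine over the 18 libraries had an amplitude of 0.274 percentage points and explained 3.09% of the variance (two-sided permutation test, 100000 draws, p = 0.801, adjusted over 2 share tests 0.849). Of monocytes plus macrophages, the amplitude was 1.23 points and explained 1.90% (permutation p = 0.849, adjusted 0.849). The size and timing of both amplitudes depended on 2 libraries. Without ZT14 R1 they were 0.162 and 0.678 points, and the fitted peaks, at 13.6 h and 14.3 h over all libraries, were at 2.70 h and 1.48 h (permutation p adjusted 0.991 for both). Without ZT2 R3 they were 0.637 and 3.72 points, with peaks at 13.8 h and 14.1 h, and permutation p-values of 0.0696 and 0.0489, both 0.0696 after adjustment. With both libraries left out, an alternative chosen after seeing the data, they were 0.202 and 1.87 points (permutation p adjusted 0.225 for both).

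Other features also differed between the libraries. ZT14 R1 held 88 cells with at least 10 UMIs each of S100a8 and S100a9, genes of neutrophils, which was 14.1% of its filtered cells, against 0 to 9 such cells in the other 17 libraries. ZT2 R3, with the most monocytes, was among these 17. In ZT2 R3, 70 of 221 macrophages (31.7%) had a UMI of Ly6c2, against 16.2% in ZT14 R1, 11.3% in ZT14 R3, 10.8% in ZT10 R1 and at most 9.09% elsewhere. Ly6c2 is a gene of the monocyte rule, so this share is not independent of the monocyte numbers. The part of these differences in the monocyte numbers was not tested. Of 23824 distinct barcode sequences, 164 occurred in more than 1 library. ZT6 R2 and ZT10 R3 shared 89 of them while no other pair shared more than 4, and neither library held a monocyte. Without these libraries, an alternative chosen after seeing the data, the amplitudes were 0.357 and 1.67 points (permutation p adjusted 0.790).

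The most abundant transcripts of the monocytes outside mitochondrial genes and those named Rpl or Rps were Gm42418 at 236 ± 48.6 UMIs per 10000 (SD, n = 5 libraries with at least 5 monocytes, used from here on), Tmsb4x at 164 ± 29.7, Fth1 at 162 ± 45.2, Actb at 124 ± 25.5, Malat1 at 120 ± 40.7 and Lyz2 at 112 ± 15.2. Tmsb4x and Actb belong to the actin cytoskeleton, and Fth1 and Ftl1 (56.2 ± 16.1) are the chains of ferritin, the iron store. Tpt1 at 63.8 ± 11.1 and Fau, a ribosomal protein made as a fusion with a ubiquitin-like one, at 52.0 ± 11.1 completed the 10 with Cd74, the invariant chain of MHC class II. Cd74 varied most among the 10, from 8.88 in ZT14 R1 to 147 in ZT2 R3, with a mean of 78.3 ± 56.3. All levels are UMIs of 3′ ends, which count transcripts whatever their length.

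To see how the monocytes differed from C1q-positive macrophages of the same skin, their summed UMIs were compared in the 5 libraries ZT2 R3, ZT10 R1, ZT10 R2, ZT14 R1 and ZT14 R3, which held 111 monocytes and 738 macrophages. Lists of values below follow this order of libraries. The macrophages were not resident cells alone by this rule. Those that failed the monocyte rule only on C1qa were 61 of 221, 10 of 120, 3 of 150, 16 of 105 and 10 of 142. Of 9006 genes tested, 723 were higher in monocytes (8.03%) and 1043 lower (11.6%) by edgeR's quasi-likelihood test with the library as a block and Benjamini-Hochberg adjusted p under 0.05. The median log2 fold change of all genes was -0.17, and fold changes are best read against it. In 83 of the genes called lower, the monocytes had no UMI at all. Without the 25 cells with C1qb or C1qc, 603 of 8800 were higher and 1225 lower, and without the 5 cells with a lymphoid UMI 657 of 9080 were higher and 1033 lower.

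The monocyte program outside the rule was higher in these cells. Of 28 listed classical monocyte genes, all tested, 21 were higher and 2 lower, with a median log2 fold change of 1.26. Mcemp1, a mast cell and myeloid membrane protein, was at 0.277, 0.360, 1.95, 2.39 and 0.522 per 10000 in monocytes and at 0.0282 or less in macrophages (log2 fold change 5.99 ± 0.58 SE, edgeR adjusted p = 1.67e-08). It was higher in each of the 5 libraries, which was required of the genes named for the largest folds, and the groups did not overlap. Napsa, an aspartic protease, was at 2.03, 1.44, 3.75, 2.48 and 2.09 against 0.448 or less (3.83 ± 0.39). F10, coagulation factor X, and Thbs1, the matrix protein thrombospondin 1, were higher by 4.07 ± 0.51 and 3.87 ± 0.62. Ms4a4c rose less (2.08 ± 0.23), from 1.75 ± 1.74 in macrophages to 6.49 ± 5.79 in monocytes, as did Lsp1 (1.95 ± 0.23), which binds actin in leukocytes, and S100a4 (1.50 ± 0.21), a calcium-binding protein of motile cells. Genes listed for the other monocyte subset, the non-classical one, were higher too, with 7 of 12 tested higher, 2 lower and a median log2 fold change of 1.43.

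Some monocyte genes rested on few libraries. Chil3 was at 0.701, 3.00, 2.70, 9.17 and 0 in monocytes and was higher in 4 of 5 libraries (log2 fold change 4.25 ± 0.56, edgeR adjusted p = 2.5e-06). Hp, the haemoglobin scavenger haptoglobin, was at 0.905, 0, 0.449, 5.16 and 0.609, also higher in 4 of 5 (5.60 ± 0.48). Vcan, the proteoglycan versican, was at 6.78 in ZT14 R1 and at 0.240 or less in the others, and its call (log2 fold change 3.11 ± 0.66) was lost without that library (1.35, edgeR adjusted p = 0.309). The call for Vcan was also lost with DESeq2 over all 5 libraries (2.54, DESeq2 adjusted p = 0.154). Lyz2 was at 119, 118, 84.3, 119 and 118 in monocytes against 58.5 to 82.7 in macrophages, with no overlap, yet its log2 fold change of 0.60 ± 0.19 (edgeR adjusted p = 0.0229) was 0.45 (adjusted p = 0.176) without ZT14 R1 and 0.59 (adjusted p = 0.0740) without ZT2 R3, and its call was lost in 5 of the other settings. The 2 members of the list that were lower were Csf1r, the receptor for the macrophage growth factor M-CSF (-1.77 ± 0.24), and Itgam, the integrin CD11b (-0.68 ± 0.24, edgeR adjusted p = 0.0465), whose call was lost in 9 of the other settings.

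The genes of resident macrophages were lower as a group. Of 30 such genes outside the rule, 27 were lower and 0 higher, with a median log2 fold change of -3.44, and 24 to 29 were lower in all other settings of the comparison. The 6 tested fibroblast markers were all lower in monocytes as well (median -3.21). The rule allowed no UMI of Pdgfra in monocytes and set no limit on it in macrophages. This direction was thus favoured by the rule and is given as description only. The part of fibroblast RNA in the macrophage values was not tested. Lyve1, a hyaluronan receptor of vessel-associated macrophages, had a UMI in the monocytes of 2 of 5 libraries only and was at 4.99 to 13.2 per 10000 in macrophages (log2 fold change -8.93 ± 0.43). Cd163, the receptor for haemoglobin bound to haptoglobin, differed by -7.87 ± 0.41, and Folr2, a folate receptor, by -5.59 ± 0.43. Mrc1 was at 2.44, 4.80, 1.05, 1.17 and 1.74 in monocytes against 22.2 to 28.7 (-3.66 ± 0.27). Apoe, which carries lipids, was lower but far from absent, at 34.9, 53.5, 1.95, 20.5 and 53.3 against 118 to 172 (-2.38 ± 0.40). Among genes with no UMI in any of these monocytes, the ficolin gene Fcna was at least 320-fold lower when 3 counts over the 5 libraries are taken as the limit. The same bound was at least 74.6-fold for the complement component C6, 66.5-fold for the peptidase Enpep, 49.8-fold for the growth factor Pdgfc, 49.7-fold for the neurturin receptor Gfra2, 31.6-fold for the phospholipase Pla2g2d, 28.0-fold for complement C2, 24.2-fold for the stem cell factor Kitl and 24.1-fold for Tanc2.

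**Figure D2:**
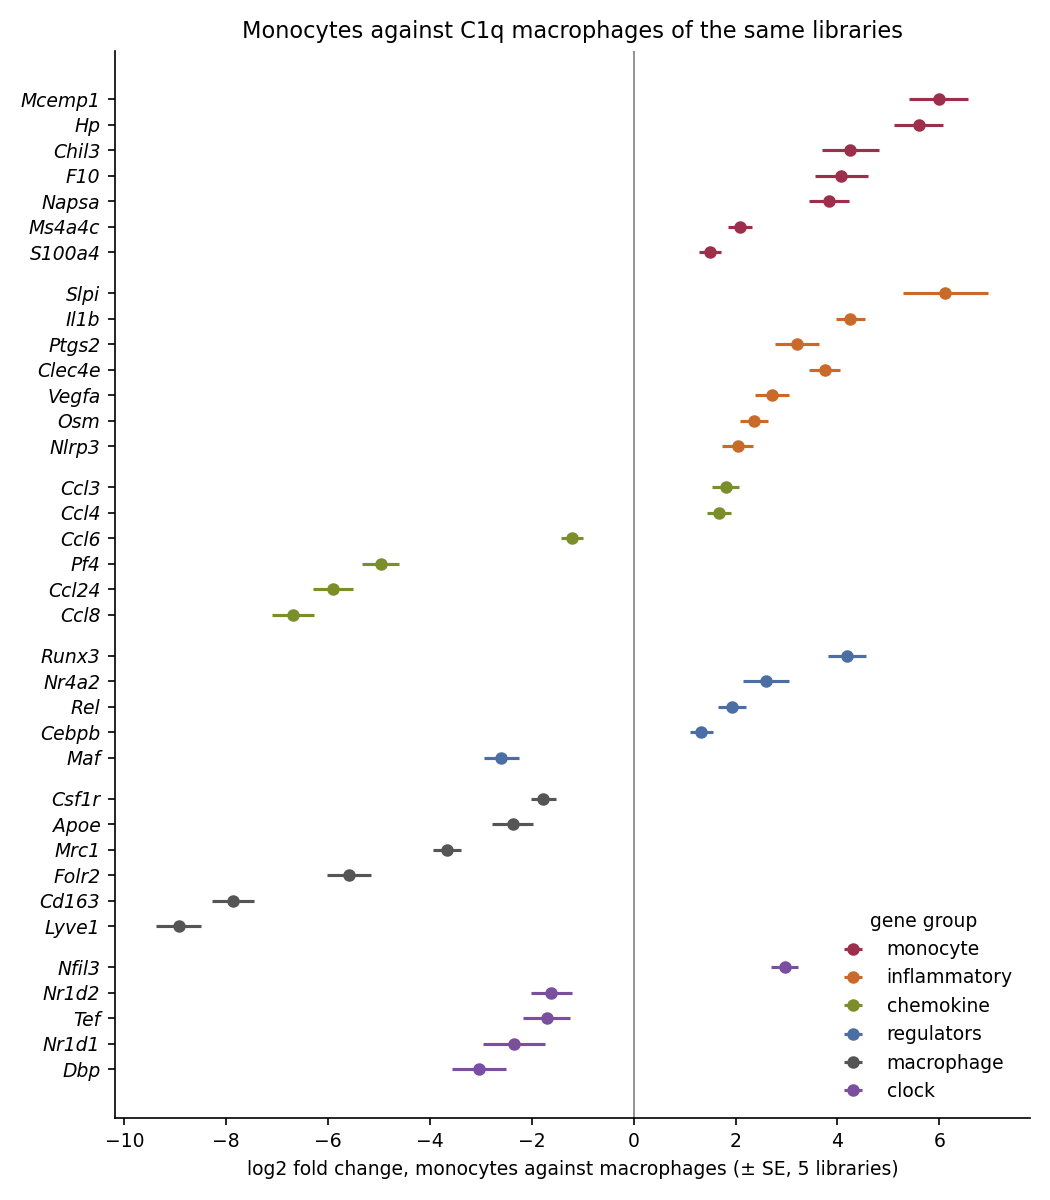
Log2 fold change of single genes in monocytes against C1q-positive macrophages of the same 5 libraries, grouped by list and coloured by group; points are edgeR estimates and bars standard errors. The fold changes run from 6.12 for Slpi to -8.93 for Lyve1, and the chemokine, regulator and clock groups have members on both sides of 0.

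Of 19 inflammatory genes tested, 10 were higher in the monocytes and 2 lower (median log2 fold change 1.23). Without ZT14 R1, 8 of 17 were higher and 1 lower (median 0.56). Il1b, the cytokine interleukin 1 beta, was at 13.1, 63.0, 8.54, 72.3 and 15.2 per 10000 in monocytes against 1.24, 1.54, 0.349, 2.46 and 1.89 in macrophages. The lowest monocyte value was above the highest macrophage value, and the log2 fold change was 4.25 ± 0.28 (edgeR adjusted p = 2e-11). Detection of Il1b differed as well, with a UMI in 51.9% of monocytes, 8.66% of macrophages and 1.40% of fibroblasts (52.1%, 6.47% and 0.359% after thinning). Ptgs2, the cyclooxygenase of prostaglandin synthesis, was higher by 3.20 ± 0.43, the vessel growth factor Vegfa by 2.71 ± 0.34, the cytokine oncostatin M (Osm) by 2.36 ± 0.28 and the inflammasome sensor Nlrp3 by 2.04 ± 0.30. Slpi, a secreted inhibitor of neutrophil proteases, had the largest fold change of the list (6.12 ± 0.84) but was at 25.02 in ZT14 R1 and at 0.300 or less in the other libraries. It was 3.64 without ZT14 R1 (edgeR adjusted p = 0.0110). The anti-inflammatory genes Il10, an interleukin, and Hmox1, a haem oxygenase, were lower by -1.60 ± 0.49 and -1.76 ± 0.36, and these calls were lost in 3 settings and 1 setting.

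Chemokine genes split by member, where 8.03% of all genes were higher and 11.6% lower. Of 18 ligands tested, 4 were higher and 9 lower. Ccl3 and Ccl4, neighbouring and similar ligands whose reads may be split, were higher by 1.80 ± 0.26 and 1.68 ± 0.24, and each was higher in all 5 libraries. The call for Ccl4 was lost in 1 other setting. Ccl8, at 0.175, 3.96, 0.300, 0.0664 and 0.174 in monocytes, was at 26.9 to 64.8 in macrophages (log2 fold change -6.69 ± 0.42). The eosinophil attractant Ccl24 (-5.90 ± 0.39), Pf4 (-4.97 ± 0.36), Ccl7 (-2.17 ± 0.51, lost in 2 other settings) and Ccl6 (-1.22 ± 0.22) were also lower. Ccl5 was higher by 4.73 ± 0.43, and by 1.72 without the 5 cells that held a lymphoid UMI (edgeR adjusted p = 0.0202). Cxcl3 was also called higher, but had no UMI in the monocytes of the other 4 libraries besides ZT14 R1, and its call (log2 fold change 2.82) was lost with DESeq2 (1.42, DESeq2 adjusted p = 0.702). Of 10 receptors, 4 were higher, among them Cxcr4, the receptor for Cxcl12 (1.36 ± 0.21). The 2 lower ones were the complement receptors C5ar1 (-1.64 ± 0.39, lost in 1 other setting) and C3ar1 (-0.98 ± 0.35, edgeR adjusted p = 0.0499, lost in 7 other settings).

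Adhesion genes and regulators also moved both ways, beside all-gene shares of 8.03% higher and 11.6% lower. Of 16 adhesion and trafficking genes, 6 were higher and 4 lower, and 3 were lower without the lymphoid cells. When ZT2 R3, ZT10 R1 or ZT14 R3 was left out, 2 of 16 were lower. Of all genes, 821 of 8588, 791 of 8725 and 845 of 8864 were lower in these fits. The integrin chains Itgal and Itgb7 were higher by 3.38 ± 0.35 and 3.27 ± 0.32 (3.17 and 3.34 without the lymphoid cells), and S1pr1, with which lymphocytes leave tissue, was lower by -4.21 ± 0.56 (-5.09 without the lymphoid cells). Of 31 transcription factors, 9 were higher and 6 lower, and 7 and 7 without the cells with C1qb or C1qc. Runx3 was at 0.613, 1.2, 1.65, 1.39 and 0.261 in monocytes against 0.0462 to 0.0539 in macrophages, with no overlap (4.19 ± 0.38, and 4.06 without the lymphoid cells). Nr4a2 (2.60 ± 0.45, lost in 1 other setting), the NF-kB subunit Rel (1.92 ± 0.27) and Cebpb (1.33 ± 0.23), a factor that monocytes need, were higher as well. The macrophage factor Maf (-2.60 ± 0.35) was lower.

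Receptors for cytokines and for microbes were among the changed genes too, beside all-gene shares of 8.03% higher and 11.6% lower. Of 22 cytokine and growth factor receptors, 10 were higher, such as Csf2rb, the shared chain of the GM-CSF receptor (1.54 ± 0.27), and Ifngr2 of the interferon gamma receptor (1.25 ± 0.27), while 5 were lower, such as the TGF-beta receptor chain Tgfbr2 (-2.52 ± 0.29). The count of higher receptors rested on single libraries, with 4 of 22 higher and 5 lower without ZT14 R1, and 6 higher and 4 lower without ZT10 R1. Without the cells with C1qb or C1qc, 7 were higher and 4 lower. Of 26 genes of Fc receptors and phagocytosis, 4 were higher and 10 lower, and 14 were lower without the cells with C1qb or C1qc. Clec4e, which senses mycobacterial lipids, was at 4.13, 9.48, 1.35, 21.1 and 1.65 against 0.128 to 1.18 (3.75 ± 0.30), and its relative Clec4d (1.93 ± 0.29) and Tlr2 (1.53 ± 0.24) were also higher. The scavenger receptor Cd36 (-3.19 ± 0.36), the inhibitory Fc receptor Fcgr2b (-1.52 ± 0.30) and Mertk, which takes up dead cells (-1.77 ± 0.42), were lower. Klrk1, the receptor NKG2D and a member of the NK and innate lymphoid list, was higher by 3.94 ± 0.42 and by 3.06 without the lymphoid cells. Outside the lists, Mefv (3.84 ± 0.36), the pyrin inflammasome sensor, and the uridine kinase Uck2 (4.2 ± 0.51) were higher. They were named for large folds with the same sign in each library, so that agreement is no separate result.

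Of 17 glycolysis genes, 7 were higher and 0 lower (median log2 fold change 0.42), led by the lactate exporter Slc16a3 (3.45 ± 0.35), with the pyruvate kinase Pkm higher by 0.91 ± 0.23, a call lost in 2 other settings. Of 15 genes of cholesterol and lipid handling, 2 were higher and 5 lower, among the latter the cholesterol exporter Abca1 (-1.93 ± 0.27). Of 14 glucocorticoid targets, 5 were higher and 3 lower, of 23 immediate early and heat shock genes 2 and 3, and of 15 cell cycle genes 2 and 5. The all-gene shares were 8.03% and 11.6%. Counts of higher and lower genes were 3 and 4 of 13 for glucocorticoid targets without ZT14 R1, 1 and 7 for immediate early and heat shock genes without ZT14 R3, and 4 and 3 of 22 for the latter without ZT10 R2. Without the cells with C1qb or C1qc, 3 glycolysis genes were higher and 1 lower, and 1 and 6 of the immediate early and heat shock genes. For the cell cycle these counts were 1 and 1 of 12 without ZT14 R1, and with macrophages thinned to the UMIs of the monocytes they were 2 and 0 of 3, with a median of 0.99 in place of -1.23.

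Of 16 clock genes tested, 3 were higher in the monocytes and 7 lower (median log2 fold change -1.42), against 8.03% and 11.6% of all genes. Counts of higher and lower clock genes were 2 and 5 with DESeq2, 2 and 4 without ZT10 R1, 1 and 5 without ZT10 R2, and 1 and 6 without ZT14 R3. With thinned macrophages 5 could be tested, of which 1 was higher and 1 lower (median 0.72). Nfil3, a repressor of clock output, was at 2.44, 4.56, 3.45, 2.72 and 2.09 in monocytes against 0.277 to 0.539 in macrophages, so that the groups did not overlap (2.97 ± 0.27, edgeR adjusted p = 3.95e-09). Its detection was 65.1% of monocytes and 16.8% of macrophages, but also 23.5% of fibroblasts. The clock-controlled factor Dbp was at 0.0584, 0, 0, 0.0443 and 0.0870 in monocytes against 0.122, 1.32, 1.69, 0.394 and 0.849 in macrophages (-3.03 ± 0.53). Its relative Tef (-1.71 ± 0.46) and the REV-ERB repressors Nr1d1 (-2.35 ± 0.61) and Nr1d2 (-1.62 ± 0.41) were lower too. The calls for Nr1d1 and Nr1d2 were each lost in 1 other setting. Per3 had no UMI in any of the 129 monocytes and was at least 11.1-fold lower than in macrophages, where 19.5% of cells had one. The calls for Bhlhe40, Per1, Per2 and Cry2 were lost in 5 to 9 other settings. Macrophage levels of Dbp and Nr1d1 were lowest in ZT2 R3, the only library of ZT2 in the comparison, and the part of the times covered in these differences was not tested.

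Among markers of other cells, the counts in lymphoid lists depended on the 5 cells named above. Of 7 T cell markers tested, 6 were higher in monocytes, and of 8 markers of NK and innate lymphoid cells 8 were. Without the 5 cells these counts were 1 of 2 and 1 of 1 tested, the latter being Klrk1, and the other members were too low to be tested. The summed NK list was 24.7 per 10000 in ZT10 R2 with its 1 such cell and 4.25 without it, against 0.159 in macrophages of that library. Of 8 neutrophil markers tested, 6 were higher and 1 lower (median log2 fold change 2.94), and without ZT14 R1 3 of 5 were higher and 1 lower (median 1.25). Their summed level in monocytes was 2.66, 1.56, 1.80, 5.91 and 1.48, with Il1r2 as the most abundant gene at a mean of 0.818, and 3 of the 14 listed markers were at 0 in all monocytes. Mmp8, a neutrophil collagenase, was at 2.01 in ZT14 R1, where it had a UMI in 14 cells, and at 0.120 or less elsewhere. Of 8 dendritic markers, 0 were higher and 2 lower, against 8.03% and 11.6% of all genes. The rule allowed no UMI of Flt3 in monocytes and set no limit on it in macrophages. The part of neutrophil RNA in the monocyte values was not tested.

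Antigen presentation differed widely between the monocytes of different libraries. The 10 tested MHC class II genes gave 0 calls in either direction against macrophages by edgeR, at an all-gene background of 8.03% higher and 11.6% lower. The count depended on the libraries, with 3 lower without ZT2 R3 (median log2 fold change -0.30 in place of 0.11), 1 higher without ZT14 R1 and 1 lower without ZT14 R3, and 3 of 12 were lower without the filter on low counts. Without the 25 cells with C1qb or C1qc, 4 of 10 were lower (median -0.24), H2-Ab1 among them (-0.77, edgeR adjusted p = 0.0174). The levels were far from even, however. H2-Ab1, the beta chain of I-A, was at 54.3, 13.7, 36.0, 3.99 and 46.1 per 10000 in monocytes and at 34.7, 32.3, 29.97, 16.1 and 42.7 in macrophages. It was lowest in ZT14 R1 in both cell types and above the macrophages in ZT2 R3, ZT10 R2 and ZT14 R3. In ZT10 R2, 1 of the 6 monocytes held 223 UMIs of H2-Ab1, and the others held 16 or fewer.

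Cell by cell, 31 of the 129 monocytes (24.03%) had no UMI of H2-Aa, H2-Ab1 or H2-Eb1. In ZT2 R3 these were 5 of 62 (8.06%, exact 95% interval 2.67 to 17.8), in ZT10 R1 4 of 7, in ZT10 R2 3 of 6, in ZT14 R1 15 of 26 (57.7%, 36.9 to 76.6) and in ZT14 R3 2 of 10. Cells with at least 100 such UMIs per 10000 numbered 44 of 62 (71.0%), 1 of 7, 1 of 6, 2 of 26 (7.69%) and 7 of 10. The medians were 178, 0, 3.50, 0 and 181. The same count was made on monocytes with under 3 UMIs each of C1qb and C1qc. At least 100 was reached by 31 of 46 in ZT2 R3, 2 of 24 in ZT14 R1 and 5 of 8 in ZT14 R3. Their medians were 141, 0 and 154. ZT2 R3 and ZT14 R3 were thus high and ZT14 R1 low, and the 2 mice of ZT14 were on opposite sides. Depth was not lower in ZT14 R1, whose monocytes had a median of 16826.5 UMIs against 12185 in ZT2 R3. In fibroblasts of ZT2 R3 and ZT14 R1, H2-Aa was at 0.0350 and 0.0348 per 10000.

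**Figure D3:**
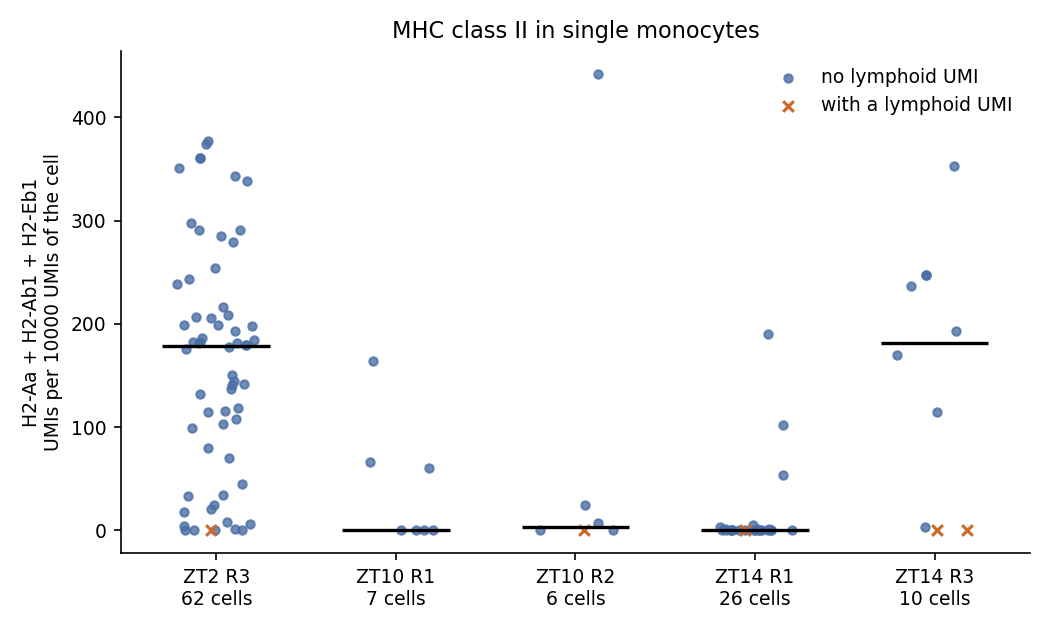
UMIs of H2-Aa, H2-Ab1 and H2-Eb1 per 10000 UMIs of each monocyte, for the 5 libraries with at least 5 monocytes; points are cells, crosses cells with a lymphoid UMI, and lines the medians. The median is 178 in ZT2 R3 and 181 in ZT14 R3, and 0 in ZT10 R1 and ZT14 R1.

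Few other genes passed the test along this axis, and which did depended on the setting. Monocytes of the 3 libraries with at least 10 of them were ranked within each library by these 3 genes and split at the middle into an upper and a lower group. In ZT14 R1, 15 of 26 cells were tied at 0, so that 2 of its 13 upper cells also had none of these UMIs and were placed there by file order. By edgeR with the library as a block, 0 of 3583 genes were higher in the upper group (0%; 59 had an unadjusted p under 0.05, and DESeq2 found 0) and 2 were lower (0.0558%; 6 by DESeq2). The 2 genes were Nkg7 and Gzma, cytotoxic genes of lymphocytes, which had 0 UMIs in the upper groups and lay in few cells (5 and 3 of the 129). Without the cells with a lymphoid UMI, 4 genes were higher and 12 lower, and without the filter on low counts 6 and 37. Cd74, described without a test since it follows the split, was at 200, 183 and 19.6 per 10000 in the upper groups of ZT2 R3, ZT14 R3 and ZT14 R1 and at 82.1, 74.0 and 0.590 in the lower groups. Batf3, a factor of dendritic cell development, was at 1.18 ± 1.12 and 0.365 ± 0.393 (log2 fold change 1.25 ± 0.57, edgeR adjusted p = 0.999). Tested on simulated data, this comparison recovered 14 of 105 genes changed 2-fold and 77 of 95 changed 4-fold.

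The summed levels of the gene lists showed how far the libraries differed as a whole. For 39 interferon-stimulated genes, the monocytes had 186, 67.1, 21.3, 69.9 and 50.3 UMIs per 10000 and the macrophages 119, 70.8, 56.2, 143 and 51.3. In ZT2 R3 the monocytes were above the macrophages, and in ZT14 R1 they were below. Over the 5 libraries, 2 of the 39 were called higher and 1 lower (median log2 fold change 0.00), against 8.03% and 11.6% of all genes. Without ZT2 R3, 0 of 38 were higher and 6 lower, against 565 and 821 of all 8588 genes. Without ZT14 R1, 6 of 39 were higher and 0 lower, against 479 and 819 of 8778. Without the cells with C1qb or C1qc, 1 was higher and 5 lower, against 603 and 1225 of 8800. The 24 inflammatory genes summed to 42.03, 116, 38.4, 198 and 57.0 in monocytes, with ZT14 R1 highest, against 23.1 to 38.5 in macrophages. The classical monocyte genes summed to 339, 317, 297, 469 and 246 against 154 to 205, with no overlap. Glycolysis genes summed to 23.4, 32.2, 25.2, 49.9 and 26.5 in monocytes, again highest in ZT14 R1, and to 31.5 in its macrophages, the highest of the macrophage values.

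**Figure D4:**
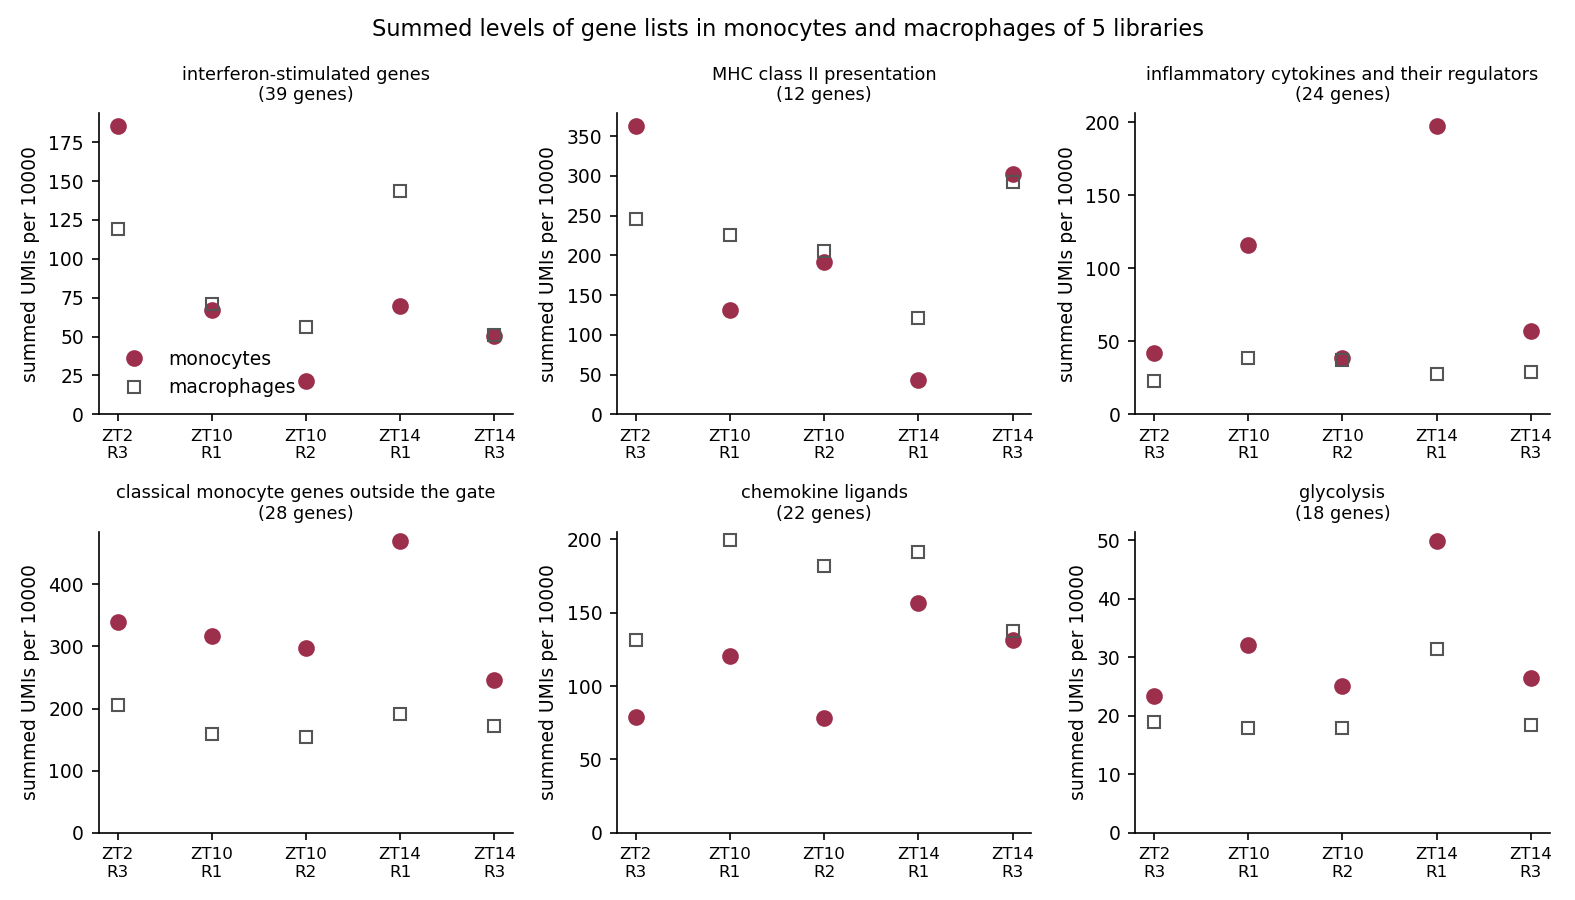
Summed UMIs per 10000 of 6 gene lists in the monocytes (filled circles) and C1q-positive macrophages (open squares) of the 5 libraries with at least 5 monocytes; each point is 1 library. Interferon-stimulated genes of monocytes peak in ZT2 R3 at 186, and inflammatory genes in ZT14 R1 at 198.

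The libraries with the most monocytes, ZT2 R3 and ZT14 R1, were then set side by side gene by gene, a comparison chosen after their cell numbers were known. Without the lymphoid cells they gave 61 and 25 monocytes with 676032 and 436401 UMIs. There is 1 mouse on each side, so the values describe these libraries and no test of time or condition can be made, and time, day and mouse cannot be told apart. Of 2846 genes with at least 50 UMIs over both and a UMI in at least 5 cells, 74 were 4-fold or more higher in ZT2 R3 and 83 in ZT14 R1. Of all 5321 genes with at least 20 UMIs over both, 47.5% were higher in ZT2 R3 and 52.5% in ZT14 R1, and the exact 95% interval of the ratio, which covers counting error only, lay above 1 for 16.1% and 21.1%. Among list members with at least 20 UMIs, 38 of 38 interferon-stimulated genes and 9 of 9 MHC class II genes were higher in ZT2 R3, and 15 of 17 inflammatory, 21 of 28 classical monocyte and 12 of 16 glycolysis genes were higher in ZT14 R1. This interval lay above 1 for 35, 9, 13, 17 and 12 of these. Other lists moved with them, as 20 of 23 tissue macrophage genes and 16 of 22 immediate early and heat shock genes were higher in ZT2 R3, with the interval above 1 for 15 and 16. Without the cells with C1qb or C1qc, 34 of 36 interferon-stimulated, 9 of 9 MHC class II, 15 of 19 tissue macrophage and 17 of 22 immediate early and heat shock genes were higher in ZT2 R3. The part of macrophage RNA and of handling in these differences was not tested.

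On the side of ZT2 R3, Isg15, a ubiquitin-like protein induced by interferon, was at 9.64 per 10000 against 3.76 in ZT14 R1 (2.57-fold, interval 2.16 to 3.06). It had a UMI in 50 of 61 and 18 of 25 cells. Irf7, the factor that amplifies interferon production, was at 9.56 against 2.25 (4.26-fold, 3.44 to 5.32), and Ifit2, an inhibitor of viral translation, at 2.50 against 0.183 (13.6-fold, 6.76 to 32.1). In macrophages of the same libraries Isg15 was at 3.24 and 4.17, Irf7 at 3.53 and 2.44, and Ifit2 at 1.31 and 1.44, so the differences there were smaller or in the other direction. Ly6a, the antigen Sca-1, was at 12.4 against 0.642, and in fibroblasts, which express it strongly, at 34.5 against 48.9. H2-Aa was at 70.2 against 3.51 (20.02-fold, 17.04 to 23.7), and Ciita, the master activator of MHC class II genes, had 82 UMIs in 35 cells against 0, at least 17.6-fold higher. Of the marker genes of the rule, Ly6c2 was at 41.995 against 7.47.

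A motif can be read in front of many of the interferon-stimulated genes. The interferon-stimulated response element has as its core GAAA, any 2 bases, and GAAA again, or TTTC with the same spacing on the other strand, which also holds the GAAA core of other interferon regulatory factors. In RefSeq promoters of GRCm38.p6, from 250 bases before to 50 after the start, 20 of the 32 listed interferon-stimulated genes that had a promoter held it on either strand (62.5%), against 1079 of all 27025 genes (3.99%). A match is a description of the letters and not a measured site. Shown are windows of 30 bases for the 4 genes with a match and the highest level in ZT2 R3 monocytes, where Bst2 was at 10.7, Isg15 at 9.64, Slfn5 at 5.84 and Ifi211 at 5.07 per 10000. They are written 5′ to 3′ on the strand of the gene with the first match of the promoter in capitals, and lie at chr8:71537583-71537612 (minus strand), chr4:156200877-156200906 (minus), chr11:82951937-82951966 (plus) and chr1:173913064-173913093 (minus).
Bst2: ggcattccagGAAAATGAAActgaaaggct
Isg15: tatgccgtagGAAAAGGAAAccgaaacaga
Slfn5: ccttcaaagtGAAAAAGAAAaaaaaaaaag
Ifi211: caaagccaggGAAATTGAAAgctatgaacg
In Bst2 and Isg15, whose promoters held 2 and 3 matches, a further match begins at the GAAA that ends the capitals and runs on in lower case. The 4 genes were 2.90-fold, 2.57-fold, 1.93-fold and 1.72-fold higher in ZT2 R3 than in ZT14 R1.

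On the side of ZT14 R1, Slpi was at 25.9 per 10000 against 0.222 in ZT2 R3 (117-fold, 70.5 to 209), in 16 of 25 and 5 of 61 cells. In macrophages of ZT14 R1 it was at 0.0953 and in fibroblasts at 0.0271. ZT14 R1 was also the library in which 14.1% of filtered cells met the rule for neutrophils, and 4 of 6 neutrophil markers were higher in its monocytes, each with an interval above 1. The other 2 were higher in ZT2 R3, each also with an interval above 1. The part of neutrophil RNA in the values of ZT14 R1 was not tested. Thbs1 was at 96.2 against 5.38 (17.9-fold) and in 23 of 25 cells, Ptgs2 at 29.7 against 1.24 (23.9-fold), Il1b at 74.8 against 13.2 (5.65-fold, 5.25 to 6.09) and the neutrophil attractant Cxcl2 at 75.8 against 9.91 (7.64-fold). Cxcl3, a close relative of Cxcl2, had 481 UMIs against 0, at least 248-fold higher, but these lay in 8 cells, and the 164 UMIs of Saa3 lay in 3. Of the monocyte genes, Vcan (43.1-fold), F10 (40.7-fold), Chil3 (13.4-fold) and Hp (5.82-fold) were higher here, while Ms4a4c was higher in ZT2 R3 (2.42-fold, 2.13 to 2.75). Lyz2 at 121 and 123 and Nfil3 at 2.47 and 2.80 did not differ beyond counting error, with ratios of 1.02 (0.983 to 1.05) and 1.13 (0.889 to 1.44).

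**Figure D5:**
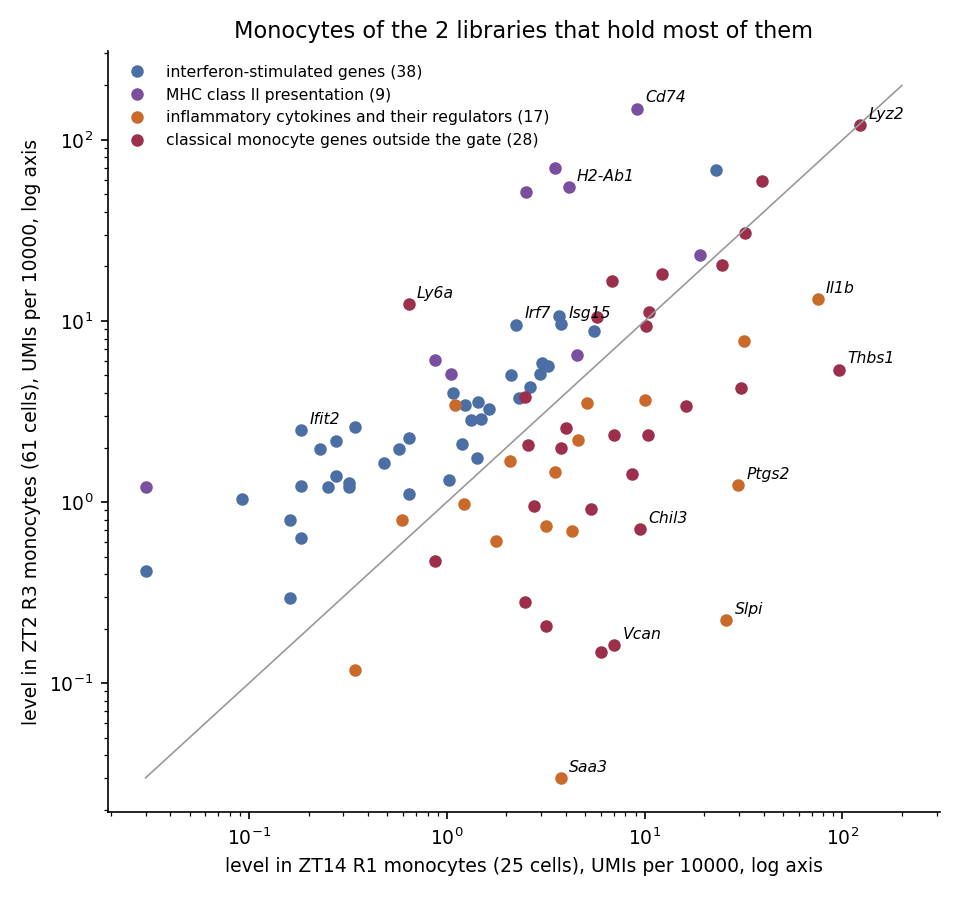
Level of each listed gene, in UMIs per 10000 on log axes, in the monocytes of ZT14 R1 (horizontal) and ZT2 R3 (vertical), coloured by list; the line marks equal levels, and genes with no UMI in 1 library are drawn at the lower edge. The 38 interferon-stimulated genes lie above the line, Slpi, Thbs1 and Vcan lie below it, and Lyz2 lies on it.

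A 24 h rhythm of single genes in the monocytes could not be resolved. The fits on 5 libraries covered 3 zeitgeber times, where cosine and sine terms can fit any pattern of the time means. They therefore test any difference among these times, in the monocytes and between the cell types. With the 5 libraries of ZT2, ZT10 and ZT14, of which ZT2 was a single mouse, edgeR found 0 of 2689 genes past the threshold (0%; 58 had an unadjusted p under 0.05, and DESeq2 and limma-voom found 0), while 32 passed without the filter on low counts, 35 without ZT10 R1, 37 without ZT10 R2 and 7 without ZT14 R3. On simulated data the same fit recovered 0 of 110 genes with a 2-fold and 0 of 90 with a 4-fold change, so its result says nothing about rhythms in these cells. The genes with the smallest p were Ifit2, Il7r, Ly6a, Spp1, Cxcl3, Irf7, Isg15, Saa3 and Phf11b, besides Ly6c2 of the rule (edgeR adjusted p 0.693 to 1.00). Ifit2 was at 2.47 per 10000 in ZT2 R3 and at 0.199 or less in the other libraries, and of the 5 only ZT14 R1 had UMIs of Cxcl3 and Saa3. In macrophages, over all 18 libraries, 19 of 8975 genes were rhythmic (0.212%), led by Nr1d2, Dbp, Tspan4, Nr1d1, Per3, Avpi1, Tef and Arntl, but 0 in the 5 libraries of the monocyte fit. For 16 of 9917 genes (0.161%) the 24 h terms differed between the cell types by edgeR, with 0 by DESeq2 and 0 when macrophages were thinned to the UMIs of the monocytes. One of them was Cxcl2, at 9.78, 19.9, 0.150, 73.2 and 17.8 in monocytes and 7.47, 17.8, 21.5, 13.3 and 10.6 in macrophages, where ZT10 R2 and ZT14 R1 of the monocytes stood apart from the other mouse of their time.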

How the data were processed

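The authors aligned reads with Cell Ranger 3.1.0 to mm10 and deposited raw UMI counts per gene and barcode, 1 matrix per mouse, unnormalized, with 23990 barcodes in all and before the limits on genes and mitochondrial reads. The members and gene lists were chosen with earlier results of these data known. Sums of UMIs were taken for each library and cell type, levels are UMIs per 10000, and edgeR 4.0.16 (quasi-likelihood test, TMM, filterByExpr, Benjamini-Hochberg) in R 4.3.3 was the main test, with DESeq2 1.42.0 and limma 3.58.1 as alternatives. Shares were tested by permutation with numpy 2.4.6, and their exact intervals used scipy 1.17.1. Depth per library was 4850221 to 40827442 UMIs, so a monocyte sum of few cells leaves low genes at few counts. The fits needed 5 monocytes per library, and the split by MHC class II needed 10. Fits were tested on simulated data, where 18 of 105 genes changed 2-fold and 76 of 95 changed 4-fold were recovered for monocytes against macrophages. No doublet caller was run. Monocytes in the top 5% of genes of their library were to be left out as an alternative, but there were 0.

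Replicate numbers mark the collection day per the labels. Over 45 pairs of libraries with the same number, deviations of macrophage sums from their time means had a median correlation of 0.0528 (-0.387 to 0.348), against -0.0157 for other pairs. No pair of libraries agreed within sampling noise (lowest chi-square per degree of freedom 9.33 over all 153 pairs, and 15.2 for ZT6 R2 with ZT10 R3). Mice were separate animals. In fits with the library as a block, p-values measure how far the differences within a mouse vary from mouse to mouse. In the other tests they measure the spread between mice. Named genes were all members of the lists, the 10 largest folds in each direction with the same sign in each library and a level of at least 0.5, the 10 smallest rhythm p-values and the 10 highest levels. Within the folds named from this rule, ribosomal, mitochondrial and unnamed genes were left out. A few genes that the rule names are not reported here. Comparisons of ZT2 R3 with ZT14 R1 used ratios of counts with exact intervals.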

Additional observations from a re-analysis of the deposited data

Results flagged for a closer look

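Several genes had 24 h terms that differed between monocytes and macrophages over the 5 shared libraries, by edgeR's test of the difference itself. These libraries covered only 3 zeitgeber times, and cosine and sine terms can fit any pattern of 3 time means. The test therefore asks for any difference among these times and cannot tell a 24 h rhythm from another pattern. The adjusted p-values were 4.91e-07 for Cxcl2, 7.65e-06 for Ccl12, 2.2e-05 for Thbs1, 0.000164 for Chil3, 0.000997 for Cxcl1, 0.00337 for Cd209d, 0.00569 for Ly6a, 0.00877 for Hspa1a, 0.0147 for Nfkbiz, 0.0221 for Apoe, 0.0238 for Ccl5, 0.0238 for Cxcl10 and 0.0291 for Ccl2. Without the monocytes that held a lymphoid UMI, an alternative chosen after seeing the data, the value was 0.244 for Ccl5, and the other genes named here kept their calls. ZT2 was 1 mouse in this fit, and DESeq2 called 0 of these genes, as did the fits with no replicate block and with thinned macrophages. On simulated data this test recovered 0 of 108 genes changed 2-fold and 4 of 92 changed 4-fold. Ccl12 was at 1.93, 2.16, 0, 0.133 and 0 per 10000 in the monocytes of ZT2 R3, ZT10 R1, ZT10 R2, ZT14 R1 and ZT14 R3, so that both mice of ZT10 differed from each other. Hspa1a, a heat shock gene with a near-identical copy, was at 23.5, 0.360, 23.5, 3.70 and 71.6 in the same order.

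Cells outside the comparisons also gave a signal. In ZT14 R1, 14.1% of filtered cells had at least 10 UMIs each of S100a8 and S100a9, the rule used here for neutrophils, against 0 to 9 cells in each of the other 17 libraries.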

How the results depend on the processing

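Over the settings tried, 114 values that answer a comparison kept their side of the threshold or, for counts of genes, stayed within 1.5 times the count reported, and 29 counts moved further. Of single genes, 113 values lost their call, 1 gained one and 1437 did neither. For the share amplitudes only the side of the threshold was compared, and their size and peak moved. The median of a gene list changed sign in at least 1 setting for 13 of 29 lists with a median, and with thinned macrophages it went from -1.42 to 0.72 for clock genes and from -1.23 to 0.99 for cell cycle genes. Genes higher and lower in monocytes than in macrophages numbered 356 and 418 when macrophages were thinned to the UMIs of the monocytes, 721 and 2353 with all libraries holding at least 1 monocyte (chosen after seeing the data), and 479 to 681 and 791 to 845 when 1 library was left out. Rhythmic genes in macrophages numbered 92 with DESeq2, 92 without a filter on low counts, 0 when thinned, 0 in the 5 libraries of the monocyte fit (chosen after seeing the data), 12 to 51 when 1 library was left out and 18 with a replicate block. Rhythmic genes in monocytes numbered 32 without the filter and 0 to 37 when 1 library was left out. Genes whose rhythm differed numbered 0 with DESeq2, 0 when thinned, 0 with no replicate block and 16 to 56 when 1 library was left out. Genes of the upper MHC class II group numbered 6 higher and 37 lower without the filter, 6 lower with DESeq2, 0 lower with no replicate block, 4 and 12 without lymphoid cells, and 0 in either direction when any library was left out. For the share amplitudes, values without 1 library ran from 0.162 to 0.637 points of filtered cells and from 0.678 to 3.72 of monocytes plus macrophages, and permutation within the collection day as a replicate block gave p = 0.812 and 0.862. Leaving the block out of the comparison with macrophages gave 596 higher and 1055 lower. Not run, because the fits left too few libraries, were the monocyte rhythm with a replicate block, without ZT2 R3 and with at least 10 monocytes per library, and the rhythm difference without ZT2 R3. The fits on the 5 libraries covered 3 zeitgeber times, so genes counted there as rhythmic differed among these times in any pattern. Few monocytes per mouse limit all values on them.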
